A study of Saccharomyces cerevisiae with 12 samples.

Results

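GCN4 encodes the transcription factor of the yeast general amino acid control, and it was examined here together with 9 genes that act on the translation of its mRNA or on the breakdown of its protein. These 10 genes were chosen by name for their known roles, with earlier results of these data known, out of 7130 gene identifiers in the counts. They are GCN4, GCN2 for the kinase that senses uncharged tRNA, and GCN1 and GCN20 for its partners. The others are the eIF2 subunit genes SUI2, SUI3 and GCD11, the eIF2B subunit gene GCN3, and the kinase and cyclin genes PHO85 and PCL5. RNA and ribosome-protected fragments were sequenced from Saccharomyces cerevisiae cultures that had spent a night in 10 µM radicicol, which binds and inhibits the chaperone Hsp90, and from cultures that had grown without it. Both kinds of culture were then diluted to an OD600 of 0.001 and regrown for 24 h in medium for which no drug was listed, so the pre-treated cells were harvested after the drug period and not during it. Colonies came to 3, each divided between drug and no drug, and each of the 4 groups (pre-treated RNA, pre-treated fragments, untreated RNA and untreated fragments) held 3 libraries. The strain, its genotype and the medium are not given in the sources used here. Features of a plasmid with His and lacZ reporters held counts in both pre-treated and untreated libraries, but not equal ones. Before scaling for depth, the His reporter coding feature held 32875 to 36404 RNA counts in pre-treated and 9678 to 23607 in untreated libraries. The lowest of these, 9678, came from untreated RNA replicate 3, the shallowest library at 737922 counts, so these ranges overstate the difference between the groups. Its fragments came to 13888 to 16261 counts in pre-treated and 9374 to 10719 in untreated libraries. The RNA was poly(A)-selected and cut to the size of the fragments, and the fragments came from monosomes on a sucrose gradient after RNase I digestion.

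When amino acids run short, uncharged tRNA activates the kinase Gcn2, which works with Gcn1 and Gcn20 on the ribosome and phosphorylates the alpha subunit of the initiation factor eIF2. Phosphorylated eIF2 blocks its exchange factor eIF2B, and initiation slows on most mRNAs. The GCN4 mRNA carries short upstream open reading frames (uORFs) that hold ribosomes away from its coding sequence in rich conditions, and slower initiation lets more ribosomes pass them, so GCN4 is translated more when most mRNAs are translated less. Gcn4 protein is short-lived: the cyclin-dependent kinase Pho85 with its cyclin Pcl5 marks it for ubiquitination by SCF-Cdc4 and for the proteasome. PCL5 is itself a target of Gcn4, which makes a negative feedback loop.

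Libraries of pre-treated RNA held between 2067285 and 2481336 counts, and those of untreated RNA between 737922 and 2029914. Pre-treated fragment libraries held between 1500265 and 1639436 counts, and untreated ones between 1155966 and 1476787. All 10 genes passed the filter on low counts in each comparison. Their counts in a library ran from 48 to 3859 in RNA and from 55 to 915 in fragments. Reads were counted on annotated features, and for 96.4% of the identifiers the summed length was a multiple of 3, which is mostly coding sequence, so ribosomes on the GCN4 uORFs were not counted. Values below are normalised counts (CPM) unless they are said to be per length (TPM). They are relative to the other genes of a library, and a lower value cannot be told apart from a rise in the rest of the RNA.

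Of the 10 genes, GCN4 and PCL5 fell in both RNA and fragments after pre-treatment, and none rose. A call here is an adjusted p under 0.05 in edgeR's quasi-likelihood test with Benjamini-Hochberg adjustment over all genes tested. In RNA 2 of the 10 genes were called, against 13.2% of 5578 genes tested, and the calls toward lower RNA took in 6.06% of all genes. In fragments 2 of the 10 were called, against 13.4% of 5090 genes, and the calls toward lower fragments took in 4.85%. At an unadjusted p under 0.05, 3 of the 10 passed in RNA, against 26.2% of all genes, and 3 in fragments, against 25.1%. The pre-treated and untreated libraries did not overlap in RNA for 4 of the 10 genes, against 30.0% of all genes, and in fragments for 3 of the 10, against 29.4%. The median log2 change of the 10 genes was -0.10 in RNA and -0.04 in fragments, and that of all genes tested was 0.00 in RNA and -0.01 in fragments.

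GCN4 (YEL009C) lies on chromosome V from 138918 to 139763 on the reverse strand (R64-1-1, as all coordinates here), a single coding feature of 846 bases. Its RNA reached 1501, 1382 and 1364 CPM in the pre-treated libraries, against 1941, 1974 and 1944 CPM in the untreated ones. Every pre-treated library lay below every untreated one, and the untreated libraries were close together. GCN4 RNA fell by 0.46 on the log2 scale (SE 0.10, 95% interval -0.66 to -0.27, adjusted p = 0.00134), a fold of 0.725. Tested against a change of 1.2-fold instead of no change, the fall in RNA missed the threshold (adjusted p = 0.0915). Of all genes tested in RNA, 5.86% had a lower fitted change.

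Ribosome-protected fragments on the GCN4 coding sequence fell as well. They came to 380.0, 306.4 and 362.7 CPM in pre-treated libraries, against 482.5, 620.0 and 662.1 CPM in untreated ones. The groups again did not overlap, and the untreated libraries spread more widely here, with replicate 1 the lowest of them. GCN4 fragments fell by 0.75 on the log2 scale (SE 0.11, 95% interval -0.98 to -0.52, adjusted p = 2.8e-05), a fold of 0.595, and this call also held against a change of 1.2-fold (adjusted p = 6.26e-04). Only 1.2% of the genes tested had a lower fitted change in fragments.

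Translational efficiency is the amount of fragments per RNA, and 1 model of the 12 libraries tested whether fragments and RNA changed by different amounts (the interaction). For GCN4 the change in efficiency was -0.28 (SE 0.14, 95% interval -0.57 to 0.02, unadjusted p = 0.0626, adjusted p = 0.625), which did not pass. The interval runs from a fall larger than that of the RNA to a slight rise, so these libraries do not settle whether the coding sequence carried fewer ribosomes per mRNA. None of the 10 genes was called in efficiency, against 0.018% of 5552 genes, which is 1 gene, HAC1, whose mRNA is known for translational control in the unfolded protein response. At an unadjusted p under 0.05, 0 of the 10 genes passed, against 7.91% of all genes, and DESeq2 called 0 of the 10 as well.

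PCL5 (YHR071W), the cyclin gene on chromosome VIII from 237004 to 237693 on the forward strand, had the lowest fitted change in RNA of the 10 genes. Its RNA stood at 735.6, 615.8 and 616.6 CPM in pre-treated libraries, against 1287, 1112 and 1091 CPM in untreated ones. Those ranges were well apart, and only 0.932% of genes tested had a lower fitted change. PCL5 RNA fell by 0.83 on the log2 scale (SE 0.10, 95% interval -1.04 to -0.62, adjusted p = 2.01e-06), a fold of 0.564. Set per length against GCN4 in the same library, PCL5 RNA came to 0.567 ± 0.029 of GCN4 RNA in pre-treated libraries and 0.730 ± 0.071 in untreated ones (SD, n = 3 each). The same ratio in fragments was 0.150 ± 0.017 in pre-treated and 0.136 ± 0.030 in untreated libraries, which overlapped.

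Fragments of PCL5 were few, between 59 and 107 counts a library. They came to 40.6, 39.8 and 47.5 CPM in pre-treated libraries, against 52.0, 54.2 and 90.4 CPM in untreated ones. The groups did not overlap, but untreated replicate 3 stood far above the other two. PCL5 fragments fell by 0.60 on the log2 scale (SE 0.19, 95% interval -0.99 to -0.21, adjusted p = 0.0353). Without untreated replicate 3 the value was -0.31 with an adjusted p of 0.295, and the call was also lost with DESeq2 (adjusted p = 0.0817), with the series table (0.0545), against a change of 1.2-fold (0.165) and without pre-treated replicate 1 (0.0783) or 2 (0.143). The interaction for PCL5 was 0.24 (95% interval -0.21 to 0.69, adjusted p = 0.839), so its efficiency was not shown to change.

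PHO85 (YPL031C) encodes the kinase that Pcl5 and other cyclins direct to their substrates. It is read from a pair of features on chromosome XVI, at 492018 to 492918 and 493021 to 493037 on the reverse strand, and reads that span both were left out. PHO85 RNA came to 167.4, 169.9 and 159.8 CPM in pre-treated libraries, against 219.3, 166.3 and 170.3 CPM in untreated ones. The groups overlapped, and the fitted change of -0.17 (95% interval -0.41 to 0.06) did not pass (adjusted p = 0.353). Its fragments stood at 75.0, 76.9 and 82.8 CPM in pre-treated libraries and at 84.0, 77.2 and 86.2 CPM in untreated ones, a change of -0.07 (95% interval -0.33 to 0.19, adjusted p = 0.799). Per length, PCL5 RNA was 5.27 ± 0.53 times PHO85 RNA in pre-treated libraries and 8.41 ± 0.55 times in untreated ones (SD, n = 3 each), with no overlap between the groups.

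**Figure D1:**
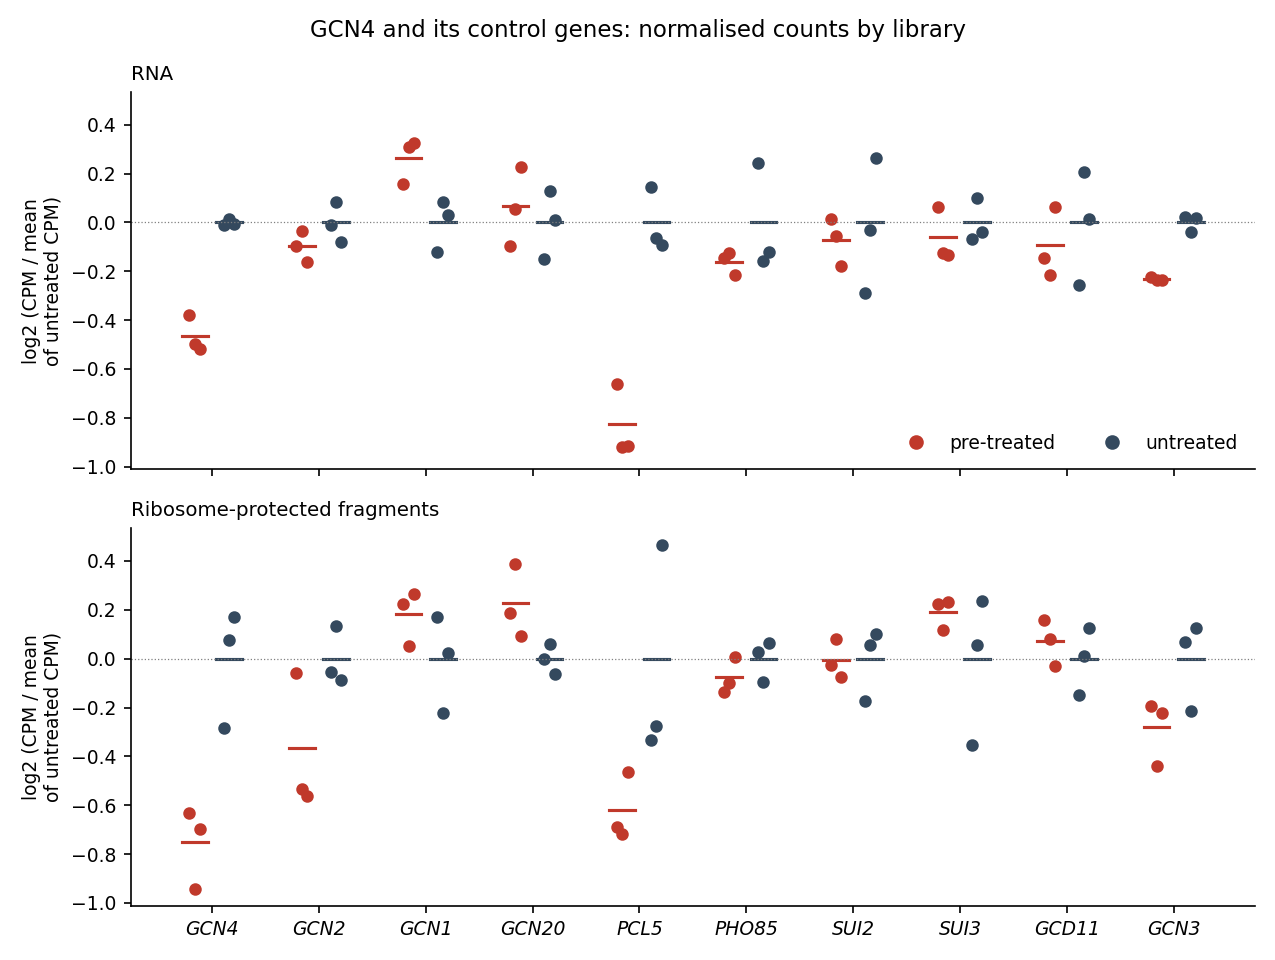
Each point is 1 library, placed by its normalised count of a gene as log2 of CPM over the mean of the 3 untreated libraries, for RNA (upper panel) and ribosome-protected fragments (lower panel), with pre-treated libraries in red at the left of each gene and untreated ones in dark blue, and bars at the log2 of the mean CPM. In RNA the pre-treated points of GCN4, PCL5 and GCN3 lie below all untreated points and those of GCN1 above, and in fragments those of GCN4 and PCL5 lie below and those of GCN20 above.

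None of GCN2 and its partner genes GCN1 and GCN20 passed the test in RNA or fragments. GCN2 (YDR283C), on chromosome IV from 1025070 to 1030049 on the reverse strand, encodes the eIF2 alpha kinase itself. GCN2 RNA came to 121.4, 126.7 and 116.1 CPM in pre-treated libraries, against 129.0, 137.6 and 122.8 CPM in untreated ones, ranges that overlapped (log2 change -0.11, 95% interval -0.33 to 0.12, adjusted p = 0.585). GCN2 fragments came to 85.4, 61.4 and 60.2 CPM in pre-treated libraries, against 85.6, 97.6 and 83.6 CPM in untreated ones. Pre-treated replicate 1 lay among the untreated libraries and the other two lay below them. The fitted change in fragments was -0.38 (SE 0.14, 95% interval -0.67 to -0.08, adjusted p = 0.0849). It passed without pre-treated replicate 1 (-0.55, adjusted p = 0.0111) and with upper-quartile scaling (-0.42, adjusted p = 0.0487), and over all alternatives the adjusted p ran from 0.0111 to 0.501.

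GCN1 (YGL195W), a very long gene of 8019 bases on chromosome VII from 131525 to 139543 on the forward strand, encodes the protein that carries the signal of a stalled ribosome to Gcn2. GCN1 RNA came to 263.8, 293.0 and 296.6 CPM in pre-treated libraries, against 217.7, 250.7 and 241.6 CPM in untreated ones. All pre-treated libraries lay above all untreated ones, but the change of 0.27 (SE 0.10, 95% interval 0.06 to 0.48) did not pass (adjusted p = 0.0856, range over the alternatives 0.0513 to 0.810). GCN1 fragments came to 299.4, 265.9 and 308.5 CPM in pre-treated libraries and to 288.8, 220.2 and 261.0 CPM in untreated ones. These overlapped, with a change of 0.19 (95% interval -0.02 to 0.40, adjusted p = 0.262). The ratio of GCN1 to GCN2 RNA per length was 1.46 ± 0.12 in pre-treated libraries and 1.13 ± 0.09 in untreated ones, and the same ratio in fragments was 2.68 ± 0.50 in pre-treated libraries and 1.81 ± 0.36 in untreated ones (SD, n = 3 each).

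GCN20 (YFR009W), on chromosome VI from 162488 to 164746 on the forward strand, encodes an ABC protein that binds Gcn1. Another annotated gene lies within it on the same strand from 163875 to 164132, and reads in those 258 bases were left out, so its level is understated in every library. GCN20 RNA came to 96.8, 107.7 and 121.3 CPM in pre-treated libraries and to 93.4, 113.1 and 104.3 CPM in untreated ones (log2 change 0.07, 95% interval -0.19 to 0.32, adjusted p = 0.784). Its fragments came to 137.7, 157.9 and 129.0 CPM in pre-treated libraries, against 120.8, 126.0 and 115.7 CPM in untreated ones. The fragment libraries did not overlap, with the pre-treated ones higher, and the change of 0.22 did not pass (adjusted p = 0.203).

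No subunit gene of eIF2 itself was called, and the pre-treated and untreated libraries overlapped for each in both measures. eIF2 brings the initiator tRNA to the ribosome: SUI2 encodes its alpha subunit, which Gcn2 phosphorylates, SUI3 its beta subunit and GCD11 its gamma subunit, which binds GTP. SUI2 (YJR007W), on chromosome X from 451020 to 451934 on the forward strand, had RNA of 144.0, 137.5 and 126.0 CPM in pre-treated libraries and 117.0, 139.7 and 171.6 CPM in untreated ones. SUI2 fragments came to 145.2, 156.6 and 140.6 CPM in pre-treated libraries and to 131.2, 153.8 and 158.8 CPM in untreated ones. The untreated libraries spanned the pre-treated ones in both measures. Its changes were -0.04 in RNA (95% interval -0.29 to 0.22, adjusted p = 0.892) and -0.01 in fragments (95% interval -0.22 to 0.21, adjusted p = 0.984).

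SUI3 (YPL237W), on chromosome XVI from 100496 to 101353 on the forward strand, had RNA of 381.5, 334.9 and 333.2 CPM in pre-treated libraries and 348.8, 391.4 and 355.2 CPM in untreated ones. Its fragments came to 143.2, 132.9 and 144.2 CPM in pre-treated libraries and to 96.0, 127.4 and 144.4 CPM in untreated ones. Both sets overlapped, with changes of -0.06 in RNA (95% interval -0.27 to 0.14, adjusted p = 0.734) and 0.19 in fragments (95% interval -0.06 to 0.45, adjusted p = 0.350). GCD11 (YER025W), on chromosome V from 205251 to 206834 on the forward strand, had RNA of 132.3, 126.2 and 153.2 CPM in pre-treated libraries and 122.7, 168.8 and 147.9 CPM in untreated ones. GCD11 fragments came to 256.1, 242.9 and 224.5 CPM in pre-treated libraries and to 207.2, 231.1 and 250.0 CPM in untreated ones. Here too the ranges overlapped, with changes of -0.09 in RNA (95% interval -0.35 to 0.16, adjusted p = 0.674) and 0.07 in fragments (95% interval -0.13 to 0.27, adjusted p = 0.717).

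The subunits of eIF2, which bind each other in equal numbers, were unequal in RNA and near each other in fragments. Per length, SUI3 RNA was 2.75 ± 0.13 times SUI2 RNA in pre-treated libraries and 2.79 ± 0.52 times in untreated ones (SD, n = 3 each). GCD11 RNA was 0.588 ± 0.099 of SUI2 RNA in pre-treated libraries and 0.601 ± 0.10 in untreated ones. In fragments the ratio of SUI3 to SUI2 was 1.02 ± 0.10 in pre-treated libraries and 0.878 ± 0.095 in untreated ones, and that of GCD11 to SUI2 was 0.946 ± 0.064 in pre-treated libraries and 0.897 ± 0.025 in untreated ones. The density of fragments on a coding sequence follows the rate of synthesis only where ribosomes move at a like speed, which was not measured here.

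**Figure D2:**
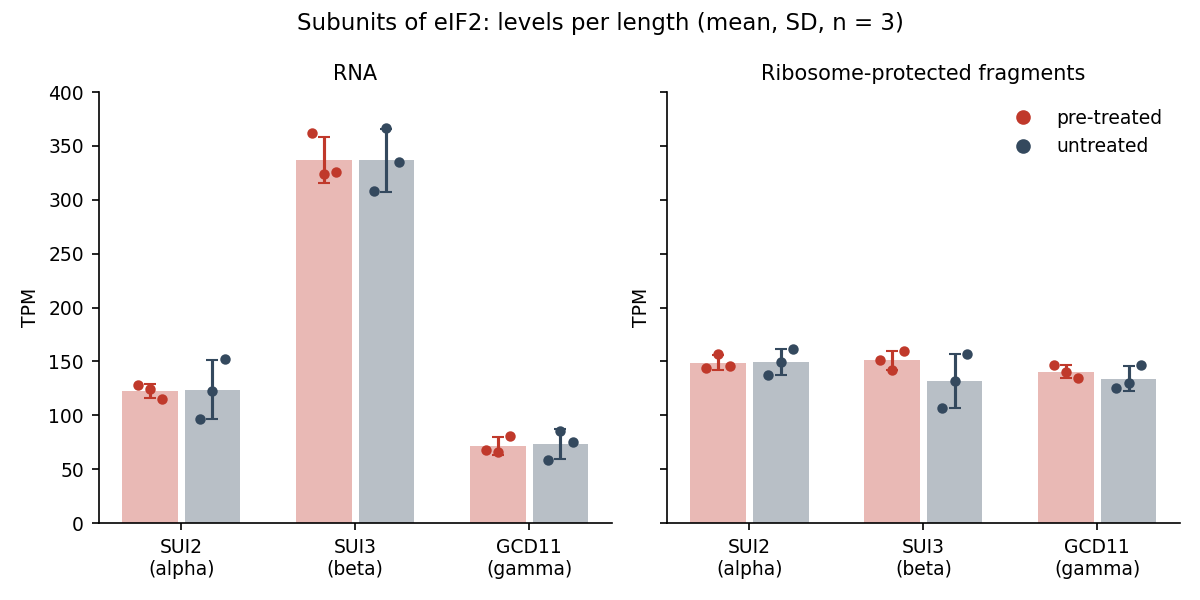
Levels per length (TPM) of the eIF2 subunit genes in RNA (left) and ribosome-protected fragments (right), with pre-treated libraries in red and untreated ones in dark blue, bars at the mean, error bars of 1 SD and points for the 3 libraries of a group. In RNA the beta subunit gene SUI3 stands at 337 TPM and the gamma subunit gene GCD11 at 71.7 TPM in pre-treated libraries, whereas in fragments all subunits lie between 132 and 151 TPM in the means of both groups.

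GCN3 (YKR026C) encodes the regulatory alpha subunit of eIF2B, through which phosphorylated eIF2 inhibits the complex, and lies on chromosome XI from 488738 to 489655 on the reverse strand. GCN3 RNA came to 53.6, 53.2 and 53.1 CPM in pre-treated libraries, against 63.5, 60.9 and 63.4 CPM in untreated ones. The groups did not overlap and each was tight, but at 48 to 133 counts a library the fit gave an interval that includes no change (-0.23, 95% interval -0.50 to 0.04, adjusted p = 0.281). GCN3 fragments came to 44.1, 37.1 and 43.2 CPM in pre-treated libraries and to 52.8, 43.4 and 54.9 CPM in untreated ones, a change of -0.27 (95% interval -0.60 to 0.06, adjusted p = 0.310) with overlap between the groups. The other eIF2B genes, GCD1, GCD2, GCD6 and GCD7, had no call in RNA or fragments, and their log2 changes ran from -0.23 to 0.37 in RNA and from -0.25 to 0.19 in fragments.

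**Figure D3:**
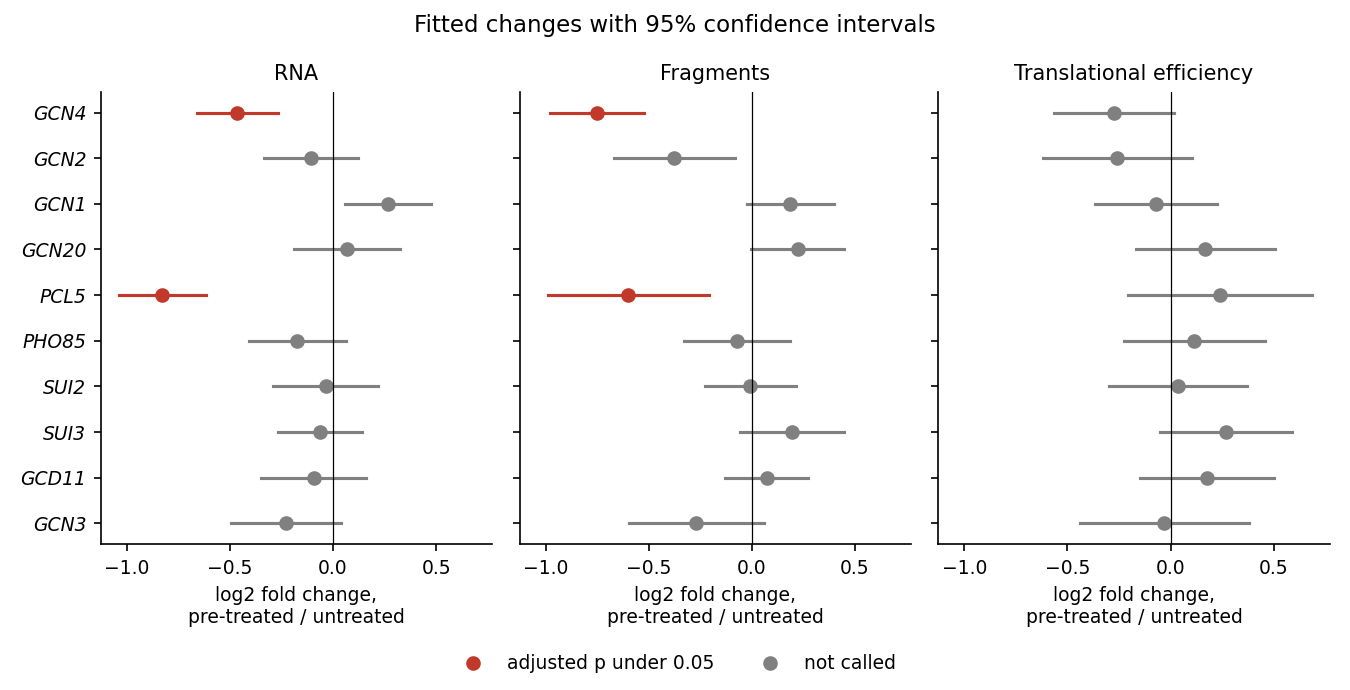
Fitted log2 fold changes of the 10 genes, pre-treated over untreated, with 95% confidence intervals, for RNA, ribosome-protected fragments and translational efficiency, in red where the adjusted p was under 0.05 and in grey otherwise. GCN4 (-0.46 in RNA and -0.75 in fragments) and PCL5 (-0.83 and -0.60) are in red in the first 2 panels, and no gene is in red in the third.

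Per length, GCN4 had the most RNA and the most fragments of the 10 genes in both groups. GCN4 RNA averaged 1383 ± 51.3 TPM in pre-treated and 1826 ± 74.8 TPM in untreated libraries (SD, n = 3 each), above 98.1% of the 5552 genes tested for efficiency in pre-treated and 98.6% in untreated libraries. PCL5 RNA was next, at 786 ± 70.6 TPM in pre-treated and 1330 ± 73.5 TPM in untreated libraries. Below them came SUI3, PHO85, SUI2, GCD11, GCN3, GCN20, GCN1 and GCN2, in the same order in both groups, down to GCN2 at 20.2 ± 0.83 TPM in pre-treated and 20.6 ± 1.41 TPM in untreated libraries. No neighbours in that order overlapped among pre-treated libraries, and PHO85 with SUI2 and GCN1 with GCN2 overlapped among untreated ones.

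Fragments gave another order below GCN4, which averaged 382 ± 43.5 TPM in pre-treated and 642 ± 92.3 TPM in untreated libraries. The eIF2 subunit genes came next in pre-treated libraries, overlapping each other, then PHO85, then GCN20 and PCL5 overlapping, then GCN3, GCN1 and GCN2. In untreated libraries the eIF2 genes, PCL5 and PHO85 formed a run of overlapping neighbours, followed by GCN3 and GCN20, then GCN1 and GCN2. PCL5 fragments averaged 57.2 ± 7.05 TPM in pre-treated and 88.0 ± 29.4 TPM in untreated libraries, far below its place in RNA.

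Those gaps between RNA and fragments appear as low translational efficiency, given here as log2 of fragments over RNA in the libraries of the same number, with the median gene at 0. Such a pair of libraries is called a culture below, although the labels do not say that both came from the same culture. GCN4 stood at -1.54, -1.72 and -1.49 in the pre-treated cultures, and at -1.60, -1.23 and -1.11 in the untreated ones. The ranges overlapped through untreated replicate 1. On average GCN4 was 3.00-fold below the median gene in pre-treated and 2.48-fold below it in untreated cultures, and of 5362 coding genes 5.39% were lower in pre-treated and 7.35% in untreated cultures.

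PCL5 was lower still. Its log2 efficiency was -3.73, -3.49 and -3.27 in pre-treated cultures and -4.21, -3.91 and -3.14 in untreated ones. PCL5 therefore carried 11.3-fold fewer fragments per RNA than the median gene in pre-treated cultures and 13.5-fold fewer in untreated ones, and only 1.85% of coding genes were lower in pre-treated and 1.53% in untreated cultures. At the other end was GCD11, at 1.25 ± 0.24 in pre-treated and 1.09 ± 0.17 in untreated cultures (SD, n = 3 each), which 4.05% of coding genes exceeded in pre-treated and 5.97% in untreated cultures. SUI3 (-0.88 in pre-treated and -1.16 in untreated cultures) and PHO85 (-0.64 and -0.72) were also below the median gene on average, and GCN20 (0.82 and 0.66), GCN1 (0.47 and 0.54) and SUI2 (0.56 and 0.50) above it. GCN3 (0.08 and 0.11) and GCN2 (-0.39 and -0.11) were nearer to it.

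**Figure D4:**
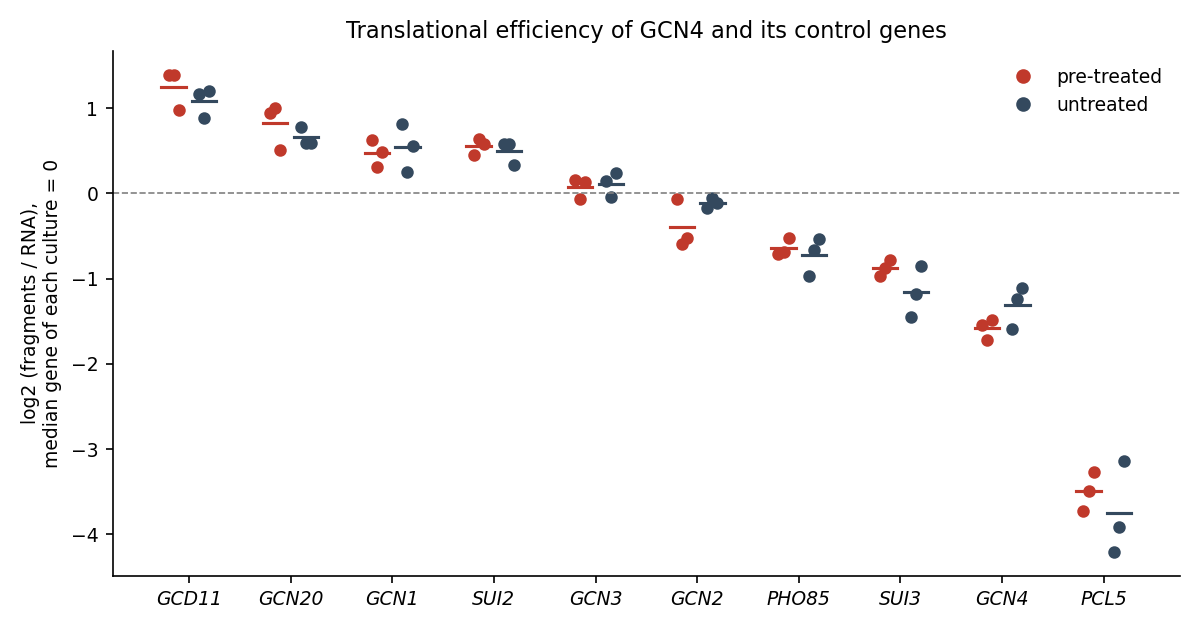
Translational efficiency of the 10 genes as log2 of fragments over RNA, with the median gene of each culture at 0, ordered by the untreated mean, with 3 pre-treated cultures in red at the left of each gene and 3 untreated cultures in dark blue, and bars at the means. A culture here is an RNA and a fragment library of the same number, taken as a pair. GCD11 lies above 0 in every culture, GCN4 lies between -1.72 and -1.11 and PCL5 between -4.21 and -3.14.

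In a list of genes that Gcn4 is known to activate, more rose than fell. The list held 32 genes, mostly of amino acid synthesis, and left out PCL5, which was called lower in RNA and in fragments. Of the 32, 10 rose and 1 fell in RNA, and 15 rose and 0 fell in fragments. Of all genes tested, 7.17% rose in RNA and 8.53% in fragments. The median log2 change of the list was 0.15 in RNA and 0.32 in fragments, against 0.00 and -0.01 for all genes tested. All 10 that rose in RNA also rose in fragments, and 5 rose in fragments without a call in RNA. The list was chosen with earlier results of these data known, so its counts beside those of all genes are a description. Many of these genes also answer to regulators of their own pathway, so the list is no measure of Gcn4 activity alone. Against a change of 1.2-fold the calls in the list came to 5 in RNA and 6 in fragments. In the same test 284 of 5578 genes were called in RNA and 312 of 5090 in fragments, in either direction. Leaving out 1 RNA library gave 7 to 11 calls in the list, with 7 without pre-treated replicate 1, and 407 to 743 among all genes.

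SNZ1 and ATR1 changed most. SNZ1, a gene of vitamin B6 synthesis, had RNA of 1231, 1163 and 1012 CPM in pre-treated libraries, against 475.2, 655.9 and 690.5 CPM in untreated ones (log2 change 0.91, SE 0.12, adjusted p = 3.47e-05). Its fragments came to 1229, 1142 and 1024 CPM in pre-treated libraries, against 504.9, 621.3 and 638.5 CPM in untreated ones (0.94, SE 0.09, adjusted p = 4.35e-08). Every pre-treated library lay above every untreated one in both measures. ATR1, a membrane transporter that gives resistance to aminotriazole, rose by 0.99 in RNA (SE 0.15, adjusted p = 8.87e-05) and by 1.17 in fragments (SE 0.20, adjusted p = 1.31e-04) on the log2 scale. ATR1 RNA averaged 138 ± 4.6 CPM in pre-treated and 73.8 ± 24.2 CPM in untreated libraries (SD, n = 3 each).

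The other target genes named here, those of smallest adjusted p in RNA or fragments, had smaller changes. LYS9, for saccharopine reductase, averaged 763 ± 41.7 CPM of RNA in pre-treated and 463 ± 46.8 CPM in untreated libraries, a rise of 0.72 (SE 0.10, adjusted p = 9.29e-06), and rose by 0.73 in fragments (SE 0.09, adjusted p = 6.25e-07). LYS2, for aminoadipate reductase, rose by 0.47 in RNA (SE 0.09, adjusted p = 9.25e-04), and LYS1, for the last step of lysine synthesis, by 0.60 in fragments (SE 0.08, adjusted p = 5.22e-06). HIS5, for an aminotransferase of histidine synthesis, rose by 0.52 in RNA (SE 0.10, adjusted p = 9.25e-04) and by 0.75 in fragments (SE 0.10, adjusted p = 8.16e-06). SNO1, the partner gene of SNZ1, rose by 0.57 in RNA (SE 0.12, adjusted p = 0.002). TRP5, for tryptophan synthase, rose by 0.45 in fragments (SE 0.08, adjusted p = 1.98e-04), with 0.14 in RNA (adjusted p = 0.384).

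The arginine genes ARG1, ARG3, ARG4 and ARG8 were not called in RNA or fragments. ARG1 had a log2 change of -0.28 in RNA (adjusted p = 0.0794) and -0.04 in fragments (adjusted p = 0.900), and ARG4 of -0.10 (adjusted p = 0.549) and -0.05 (adjusted p = 0.763), both named after their values were seen. LEU3, the regulator of leucine synthesis, was the 1 target called lower in RNA, at 55.8 ± 4.02 CPM in pre-treated and 73.8 ± 4.07 CPM in untreated libraries (-0.39, SE 0.13, adjusted p = 0.0473), also named after its value was seen. That call was lost without any 1 of the 6 RNA libraries, with adjusted p between 0.0548 and 0.171, with DESeq2 (0.174), with the replicate block (0.0786), without the filter on low counts (0.0515) and against a change of 1.2-fold (0.434). The value of HIS3 is uncertain, since another gene overlaps it on the same strand and the plasmid carries a His reporter.

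**Figure D5:**
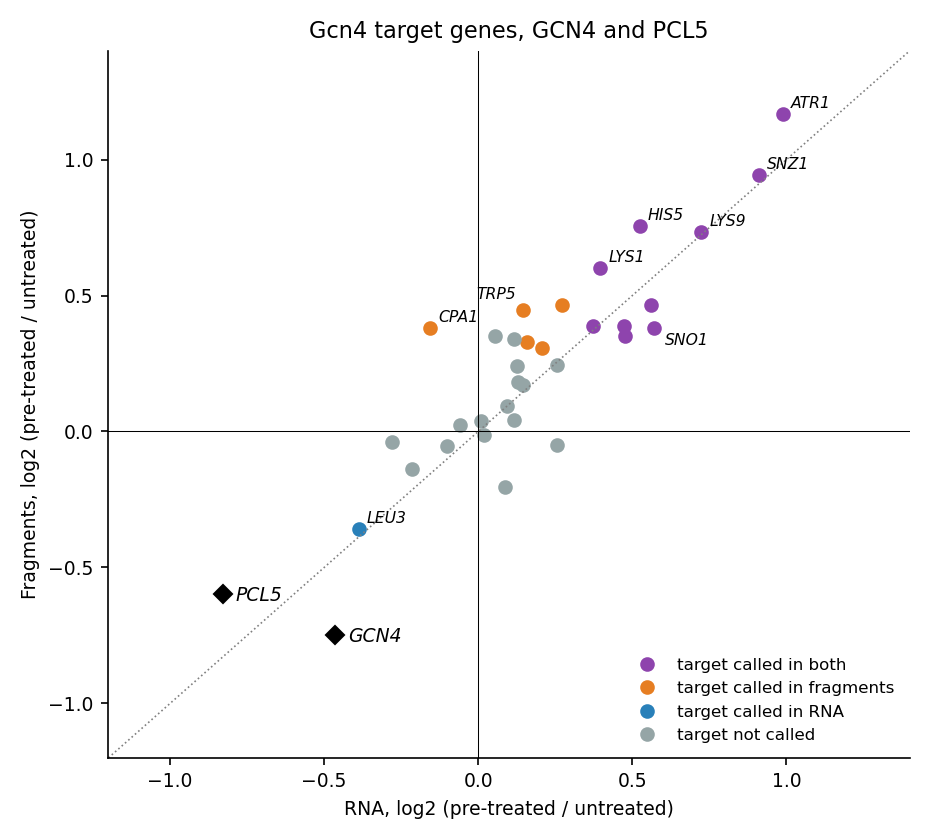
Log2 changes, pre-treated over untreated, of the 32 Gcn4 target genes in RNA (horizontal axis) and ribosome-protected fragments (vertical axis), coloured by which measure passed the test, with GCN4 and PCL5 as black diamonds and a dotted line where both changes are equal. ATR1 (0.99 and 1.17) and SNZ1 (0.91 and 0.94) lie at the upper right, while GCN4 (-0.46 and -0.75) and PCL5 (-0.83 and -0.60) lie at the lower left.

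Other mRNAs with regulatory uORFs gave 1 call in each direction in fragments and none in RNA, out of 6 genes (CPA1, CLN3, YAP1, CAD1, DCD1 and HOL1), with a median log2 change of -0.03 in both measures. Over all genes tested, 8.53% rose and 4.85% fell in fragments, and 13.2% were called in RNA. CPA1, which encodes the small subunit of the arginine-specific carbamoyl phosphate synthetase and whose uORF peptide stalls ribosomes when arginine is plentiful, had fragments of 351.1, 362.4 and 297.0 CPM in pre-treated libraries, against 228.0, 252.7 and 296.4 CPM in untreated ones. It rose by 0.38 in fragments (SE 0.10, adjusted p = 0.0130), a call lost without pre-treated replicate 2 (adjusted p = 0.126) or untreated replicate 2 (0.0605). Against a change of 1.2-fold the calls of CPA1 and of CLN3, described next, were lost (both 0.356), as were those of LYS2 in RNA (0.0723) and TRP5 in fragments (0.0553). Its RNA came to 575.5, 550.4 and 480.3 CPM in pre-treated libraries and to 552.9, 562.8 and 685.2 CPM in untreated ones, with a change of -0.16 (adjusted p = 0.365).

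Log2 efficiency of CPA1 was -0.27, -0.15 and -0.27 in pre-treated cultures and -0.86, -0.72 and -0.76 in untreated ones, which did not overlap. No gene of this or the other lists was called in efficiency. The interaction for CPA1 was 0.54 (SE 0.15, adjusted p = 0.239), described after its value was seen. It passed only in the fit with a term for the culture that an RNA and a fragment library of the same number were taken to share (0.55, adjusted p = 0.0193), and over all alternatives the adjusted p ran from 0.0193 to 1.0. CLN3, a G1 cyclin gene, fell by 0.42 in fragments (SE 0.14, adjusted p = 0.0424), at 59.1 ± 7.53 CPM in pre-treated and 78.5 ± 3.82 CPM in untreated libraries. The CLN3 call was lost with DESeq2 (adjusted p = 0.193), with the replicate block (0.0537) and without 5 of the 6 fragment libraries, replicate 1 of the pre-treated group excepted, with adjusted p up to 0.206.

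Among the genes that work beside Gcn2, the 11 listed were YIH1, GIR2 and RBG2, which bind Gcn1 or each other, the ribosomal stalk genes RPP0, RPP1A, RPP1B, RPP2A and RPP2B, the Hsp90 genes HSP82 and HSC82, and the kinase gene SNF1. The single call, beside 13.2% of all genes called in RNA and 6.06% called lower, was HSP82, the inducible isoform of radicicol's target, which fell by 0.33 in RNA (SE 0.10, adjusted p = 0.0309), at 2088 ± 105 CPM in pre-treated and 2625 ± 244 CPM in untreated libraries. Its counts are uncertain because HSC82 is nearly identical, and its call was lost without each RNA library but untreated replicate 3, with adjusted p up to 0.195, and against a change of 1.2-fold (0.557). In fragments HSP82 had a log2 change of -0.04 (adjusted p = 0.860). No gene of eIF3 and reinitiation (6 genes), of eIF2 partners and phosphatases (6 genes) or of the initiator tRNA methyltransferase (2 genes) was called in RNA, fragments or efficiency. Among the eIF2 partners, TIF5, CDC123, GLC7, SIT4, SUI1 and TIF11, all 6 had positive log2 changes in RNA and in fragments. Their medians were 0.19 in RNA and 0.25 in fragments. Of all genes tested, 2774 of 5578 had a positive change in RNA and 2472 of 5090 in fragments.

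Of 9 genes of Gcn4 breakdown, which cover SCF-Cdc4 and its E2 enzyme, the kinase Ssn3 with its cyclin, and PHO80 and PHO81, none was called in RNA and 1 in fragments, against 13.2% of all genes in RNA and 13.4% in fragments. PHO81, the inhibitor of Pho85 with its cyclin Pho80, averaged 77.1 ± 4.06 CPM of fragments in pre-treated and 111 ± 11.3 CPM in untreated libraries and fell by 0.52 (SE 0.12, adjusted p = 0.00343; 0.0770 against a change of 1.2-fold). In RNA its log2 change was -0.23 (adjusted p = 0.285). Of 8 other Pho85 cyclin genes, CLG1 alone was called, in RNA, which is near the 13.2% called among all genes. It fell by 0.39 (SE 0.11, adjusted p = 0.0149), at 140 ± 11 CPM in pre-treated and 183 ± 9.81 CPM in untreated libraries. The CLG1 call was lost without pre-treated RNA replicate 1 (adjusted p = 0.108) or 2 (0.0672) or untreated replicate 1 (0.0542), and against a change of 1.2-fold (0.342). Of 4 genes of Gcn4 coactivators, 1 was called, also in RNA and beside the same 13.2%: SPT7, a subunit of the SAGA complex, fell by 0.43 in RNA (SE 0.13, adjusted p = 0.0320), at 69.1 ± 4.64 CPM in pre-treated and 90.7 ± 14.9 CPM in untreated libraries. The SPT7 call was lost with DESeq2 (adjusted p = 0.112), with the replicate block (0.0628) and without each RNA library but untreated replicate 3 (0.0532 to 0.153), and against a change of 1.2-fold (0.322).

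Across the 12 libraries, the likeness of each gene to GCN4 was taken as Pearson's r of log2 CPM after centring within RNA and within fragments, as a description, since these points share the treatment, the cultures and the depth of each library. PCL5 was the most alike of the 9 other genes, with an r of 0.856, and 102 genes had a higher one. GCN3 (0.789) and GCN2 (0.736) followed, PHO85 (0.390), SUI2 (0.180), GCD11 (0.076) and SUI3 (-0.012) were less alike, and GCN20 (-0.657) and GCN1 (-0.703) ran opposite to it. Over all genes the highest were YOR389W (0.98), AIM41 (0.969), SLX9 (0.962), SER3 (0.952) and RPL35B (0.951). SER3, a gene of serine synthesis, fell by 0.92 in RNA (SE 0.13, adjusted p = 9.72e-06) and by 1.41 in fragments (SE 0.11, adjusted p = 1.81e-10), both lower than the changes of GCN4. Its counts are uncertain because the noncoding gene SRG1 overlaps it on the same strand, and those of RPL35B because it has a near-identical paralog.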

How the data were processed

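RNA-seq and ribosome profiling counts of 12 yeast libraries, 3 per group, were analysed. The deposited values were raw counts per feature, made by the authors with featureCounts 1.6.2 on the sense strand of an R64-1-1 annotation with a plasmid added, without reads that overlap several features or map to several places, per the file headers. The submitters' processing notes also name sacCer3, STAR 2.7.1a, SAMtools 1.9 and cutadapt 1.18. Here 7557 features were summed to 7130 identifiers. Identifiers were named from a RefSeq table (6048 matched).

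Genes were kept by filterByExpr (minimum count 10, minimum total 15), scaled by TMM and tested in R 4.3.3 with edgeR 4.0.16 (robust quasi-likelihood, Benjamini-Hochberg over all genes tested). RNA and fragments were each compared over 6 libraries, and efficiency as an interaction over 12. CPM for RNA and fragments were scaled within a library type. TPM used feature lengths. Levels of efficiency used counts with a pseudocount of 0.5, divided by the library's own total over the genes tested for efficiency. They are log2 ratios of fragments to RNA in libraries of the same number, less the median gene. The CPM behind the likeness to GCN4 came from all 12 libraries scaled together. A total of 3 counts in a library equals 1.21 to 4.07 CPM, which covers counting error only. The fits were also run on simulated counts with the same set spread for every gene and a fixed size of change, which does not measure their power for smaller changes.

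The 10 genes and the 10 lists (87 genes) were chosen with earlier results of these data known. All 10 genes are named, and of each list up to 6 called genes of smallest adjusted p in each comparison, with the 5 genes most like GCN4. Alternatives were DESeq2 1.42.0, RLE and upper-quartile scaling, no filter, the series-wide count table, a replicate block, a culture term, a test against a fold of 1.2, and each replicate left out. Colonies were separate, but the labels do not tie a replicate number to a colony, so the number was no term in the fits.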

Additional observations from a re-analysis of the deposited data

How the results depend on the processing

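GCN4 kept its direction in RNA (log2 -0.51 to -0.44) and fragments (-0.87 to -0.66) under every alternative tried. Its call held under all of them in fragments, and in RNA under all but the test against a change of 1.2-fold (-0.46, adjusted p = 0.0915). It was called in efficiency under none (-0.40 to -0.18). The number of the 10 genes called, 2 in the fits reported, became 1 in RNA against a fold of 1.2, and 1 in fragments against that fold, with DESeq2 and with the series table. With upper-quartile scaling, which added GCN2, it became 3 in fragments. Leaving out 1 fragment library gave 1 to 2. Of all genes, a fold of 1.2 gave 284 calls in RNA (738 reported) and 312 in fragments (681 reported), and DESeq2 492 and 454. Leaving out 1 library gave 407 to 743 in RNA, lowest without pre-treated replicate 2, and 442 to 667 in fragments, lowest without pre-treated replicate 2. Calls in efficiency, 1 as reported, came to 29 with the culture term, 6 without the filter, 2 with the replicate block, and 0 to 21 on leaving out 1 library or culture, with 21 without untreated RNA replicate 3, the shallowest library. With upper-quartile scaling the share of calls toward higher was 45.8% in RNA (54.2% reported) and 52.4% in fragments (63.7% reported), and no scaling shifted the median of all genes by over 0.1.

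Several changes near 0 turned sign when libraries were left out, and the cause was not tested. With 1 library left out these were GCD11 RNA (-0.229 to 0.051), GCN20 RNA (-0.019 to 0.154), SUI2 RNA (-0.161 to 0.080) and SUI2 fragments (-0.083 to 0.044). For efficiency, either 1 library or both libraries of a replicate number were left out. There GCN1 (-0.223 to 0.086), GCN3 (-0.135 to 0.039), PHO85 (-0.043 to 0.212) and SUI2 (-0.077 to 0.163) turned sign. None of these was called.

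Whether replicate numbers pair the libraries was checked through correlations of deviations from the group means. Same-numbered RNA and fragment libraries correlated by 0.111 to 0.188 in pre-treated and 0.036 to 0.10 in untreated cultures. Those of different numbers correlated less, by -0.179 to 0.036 in pre-treated and -0.072 to 0.011 in untreated cultures. Between treatments, same-numbered RNA libraries correlated by 0.008 to 0.073, and those of different numbers by -0.061 to 0.005. In fragments the same-numbered ones were not higher, at -0.143 to -0.012 against -0.048 to 0.106. These correlations are weak, but those of RNA with fragments were higher in every same-numbered pair. With the replicate block 673 genes were called in RNA and 628 in fragments, and GCN4 stood at -0.47 in RNA and -0.75 in fragments. The genes with the fewest counts a library were GCN3 (48 to 133 in RNA and 55 to 71 in fragments) and, in fragments, PCL5 (59 to 107).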
